A study of Mus musculus with 6 samples.

Results

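The transcripts of 10 marker genes of choroid plexus epithelium, the secretory sheet that hangs in the brain ventricles, were followed in punches of mouse locus coeruleus. The locus coeruleus is the noradrenergic nucleus of the dorsal pons and lies beside the fourth ventricle, where a choroid plexus is also found. The genes were taken by name, as markers of this epithelium: Ttr, Sostdc1, Kl, Folr1, Prlr, Kcne2, Clic6, Aqp1, Slc4a5 and Otx2. All 10 matched a single row each among the 56923 genes of the deposited table, with Ttr as ENSMUSG00000061808.5, Folr1 as ENSMUSG00000001827.13, Kcne2 as ENSMUSG00000039672.13 and Kl as ENSMUSG00000058488.8. Kcne2 and Clic6 both lie on chromosome 16 and Aqp1 and Slc4a5 on chromosome 6, and the others lie on chromosomes 5 (Kl), 7 (Folr1), 12 (Sostdc1), 14 (Otx2), 15 (Prlr) and 18 (Ttr).

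Bulk poly-A RNA sequencing compared 3 libraries from 5xFAD mice (numbered 64, 65 and 79) with 3 libraries from wild-type (WT) mice (62, 63 and 66). The 5xFAD line is a transgenic model of amyloid deposition whose transgenes are driven in neurons by the Thy1 promoter, and WT mice carry none of them. Both groups were untreated as far as the labels say, and age, sex, strain background and pooling of animals are not stated in the labels. The series is concerned with tau phosphorylation, sleep loss and overexcitable neurons of this nucleus, and the genotype comparison asks which transcripts differed in the punched tissue.

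Choroid plexus epithelium makes cerebrospinal fluid. Ion transporters and water channels in its apical membrane move salt and water into the ventricle, carrier proteins are secreted with the fluid, and surface receptors take vitamins and hormones from blood. It is continuous at its base with ependyma, the ciliated lining of the ventricle, and it covers a stroma of fibroblasts and fenestrated capillaries. Some of the 10 genes are also expressed by other brain cells.

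The libraries held 15158712 to 20079349 reads assigned to genes. The values are read counts divided by a size factor for each library, called normalized counts here. The punches carried noradrenergic transcripts in every library. The first 3 markers of that cell type, Dbh, Th and Slc6a2, lay between 434 (Th in WT 66) and 4978 (Slc6a2 in 5xFAD 65) normalized counts, and of 12 noradrenergic genes Hand1 alone was at 0 in all libraries. In the test used below, which compared log2(normalized count + 1) with limma over 16411 genes, Thy1 was the single gene past an adjusted p of 0.05 (log2 fold change of 1.23, SE 0.11, limma adjusted p = 0.0456). Its normalized count was 20324 ± 2983 in 5xFAD and 8607 ± 571 in WT (SD, n = 3 each). The labels do not say that each library is a separate animal, so p-values measure the spread between these samples, which may be technical.

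WT 66 stood apart in part of the choroid plexus genes and is described before the genotypes are compared. For Prlr it was the lowest library, and for Sostdc1 the next to lowest. It was the highest library for 6 of the 10 genes. Among these, Ttr, Kl, Clic6 and Slc4a5 were tested, and Folr1 and Kcne2 were not. For Slc4a5, WT 66 was highest by 1.05-fold only. Over all tested genes it was the highest in 3045, or 18.6%. It was at least 2-fold above the next library for 3 of the 10, namely Ttr, Kcne2 and Folr1. Among the 7 of the 10 that were tested this held for 1, Ttr, against 13 of the 16411 tested genes, or 0.0792%. Kcne2 and Folr1 are not among the 16411, because the filter kept genes with at least 10 normalized counts in at least 3 libraries. This measure was chosen after the values were seen, and it compares a library with 5 others, not the genotypes. In bulk tissue a larger number of cells of a type and more RNA per cell cannot be told apart.

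Promoter windows are shown for Kcne2 and Kl, whose exact Poisson 95% intervals in WT 66 lay above those of all other libraries, and for the homeodomain factor Otx2. Ttr and Folr1 shared that pattern of intervals and have no window to show. RefSeq promoter windows of the build GRCm38.p6, which is not the build of the counts, matched 6 of the 10 genes (Kl, Prlr, Kcne2, Aqp1, Slc4a5 and Otx2) with 12 annotated starts. Ttr, Folr1, Clic6 and Sostdc1 had no entry. The 250 bases before each start were searched on both strands for TAATCC, whose reverse complement is GGATTA, the core that OTX homeodomains bind, and for TGTTTAC, whose reverse complement is GTAAACA, a forkhead element. The windows shown are the first of 2 for Kcne2 (chr16:92292139-92292388, plus strand), Kl (chr5:150952357-150952606, plus strand) and the start of Otx2 that holds a match (chr14:48665110-48665359, minus strand), each read 5′ to 3′ toward the start, with a match in capitals.
Kcne2: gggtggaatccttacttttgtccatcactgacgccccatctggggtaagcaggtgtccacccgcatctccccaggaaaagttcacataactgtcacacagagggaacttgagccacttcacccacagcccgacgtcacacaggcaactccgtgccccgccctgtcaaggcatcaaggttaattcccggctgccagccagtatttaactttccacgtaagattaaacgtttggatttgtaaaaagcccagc
Kl: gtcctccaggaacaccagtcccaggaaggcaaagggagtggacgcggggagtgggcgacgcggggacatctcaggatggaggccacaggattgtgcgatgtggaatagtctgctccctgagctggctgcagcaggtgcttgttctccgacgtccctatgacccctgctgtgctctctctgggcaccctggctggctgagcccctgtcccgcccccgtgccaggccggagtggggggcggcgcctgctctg
Otx2: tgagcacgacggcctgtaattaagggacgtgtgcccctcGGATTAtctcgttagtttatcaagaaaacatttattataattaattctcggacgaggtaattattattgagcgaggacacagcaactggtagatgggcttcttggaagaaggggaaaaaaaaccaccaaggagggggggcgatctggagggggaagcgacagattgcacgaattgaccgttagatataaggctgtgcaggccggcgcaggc

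The TAATCC core was found in 1 of the 12 windows, at the Otx2 start shown, where its first base lies at position -211 counted from the start. Over all 32851 windows, 2054 or 6.25% held it. The forkhead element was found in 1 of the 12, at a start of Prlr, and in 1040 or 3.17% of all windows. The first 2 windows of Otx2 overlap, so the 12 are not independent. The Kcne2 and Kl windows had neither element in these bases.

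Ttr, Kl and Sostdc1 act outside the cell or at its surface. Ttr encodes transthyretin, the carrier of thyroid hormone and of retinol-binding protein that choroid plexus secretes into cerebrospinal fluid, and which also binds amyloid-beta. Its normalized count was 61.2, 12.5 and 41.0 in 5xFAD 64, 65 and 79, and 10.2, 12.9 and 1107 in WT 62, 63 and 66. WT 66 was therefore 18.1-fold above the next library and 85.8-fold above the median of the other 5. No other of the 16411 tested genes had as large a ratio of WT 66 to the next library. The remaining 5 libraries were not alike either. Exact Poisson 95% intervals, which cover counting error only, ran from 45.9 to 80.1 in 5xFAD 64 and from 29.4 to 55.6 in 5xFAD 79, above those of 5xFAD 65, WT 62 and WT 63, which reached 21.8, 18.3 and 21.3 at their upper ends. These values rest on 53, 12 and 41 reads in 5xFAD 64, 65 and 79 and on 11, 15 and 1084 reads in WT 62, 63 and 66.

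**Figure D1:**
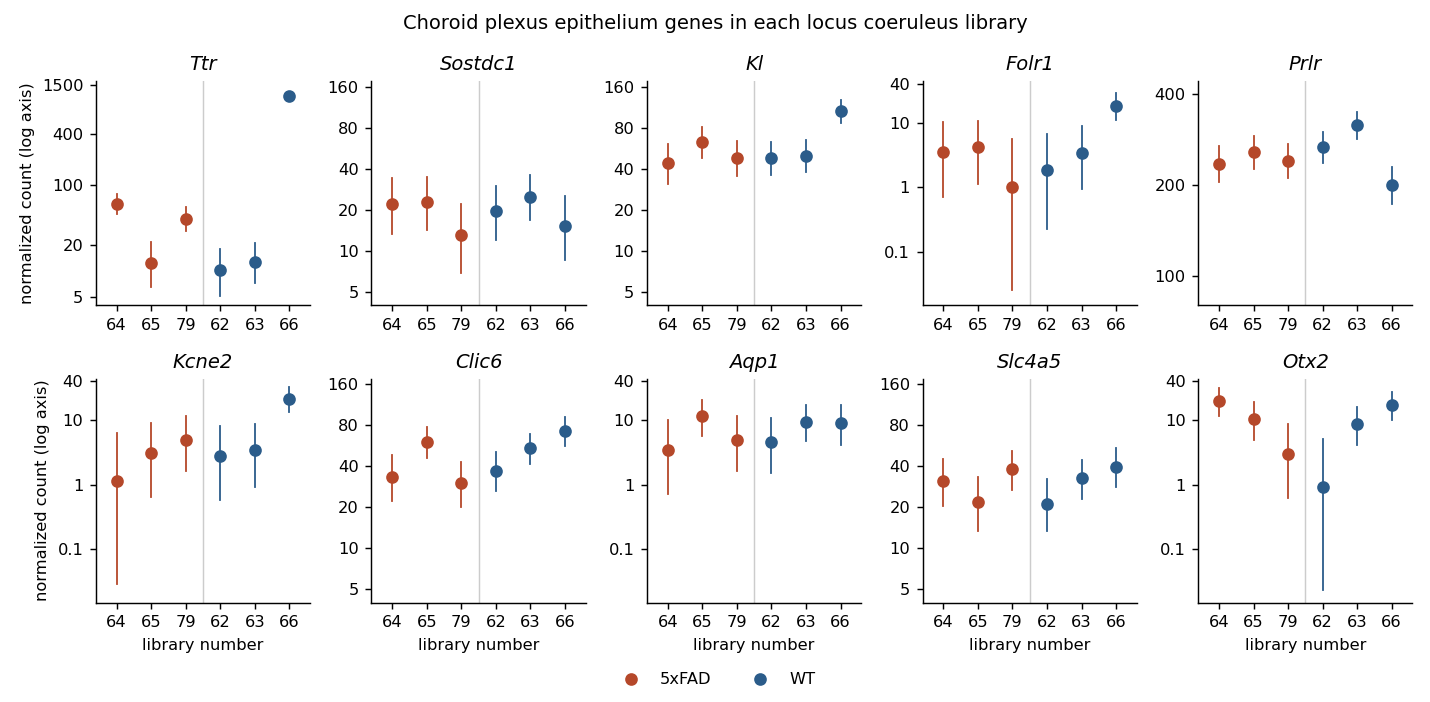
Normalized counts of the 10 choroid plexus genes (log axes) in the 3 5xFAD and 3 WT libraries, 1 point per library, with exact Poisson 95% intervals that cover counting error only. WT 66 was the highest library for Ttr, at 1107 against 61.2 or less elsewhere, and for Folr1, Kl, Kcne2, Clic6 and Slc4a5, while Prlr was lowest there.

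Klotho and Sostdc1 followed different orders. Kl encodes klotho, a membrane protein that can be shed and that serves as co-receptor for the hormone FGF23. It had 43.9, 62.4 and 48.0 normalized counts in 5xFAD 64, 65 and 79, and 48.3, 49.9 and 106 in WT 62, 63 and 66. The counting interval of WT 66, 86.8 to 129, lay above those of the other 5 libraries, as it did for Ttr, Folr1 and Kcne2 and for no other of the 10 genes. Sostdc1 encodes a secreted inhibitor of BMP and Wnt signalling. It had 22.0, 22.9 and 13.0 normalized counts in 5xFAD 64, 65 and 79, and 19.5, 24.9 and 15.3 in WT 62, 63 and 66. WT 66 was the library next to the lowest for Sostdc1, and the groups overlapped.

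The receptors differed as well. Folr1 encodes folate receptor alpha, which brings folate across the epithelium into cerebrospinal fluid. It had 3.47, 4.16 and 1.00 normalized counts in 5xFAD 64, 65 and 79, and 1.86, 3.44 and 18.4 in WT 62, 63 and 66. Outside WT 66 it was read by 1 to 4 reads a library, and in WT 66 by 18. Prlr, the prolactin receptor, had 235, 256 and 240 normalized counts in 5xFAD 64, 65 and 79, and 266, 314 and 199 in WT 62, 63 and 66. Prlr was thus lowest in WT 66, at 0.634 of the highest of the others, and it was the member with the smallest ratio of highest to lowest library, 1.58. Its gene model overlaps exons of Gm21973 on the same strand in GENCODE M21, by 203 bases, so reads there may be split.

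Of the channels and transporters of fluid secretion, Kcne2 had WT 66 far above the rest. Kcne2 encodes an accessory subunit of potassium channels that sits in the apical membrane with Kcnq1. It had 1.16, 3.12 and 5.00 normalized counts in 5xFAD 64, 65 and 79, and 2.79, 3.44 and 21.4 in WT 62, 63 and 66. WT 66 was 4.29-fold above the next library for Kcne2 and 4.42-fold for Folr1. Clic6, of the chloride intracellular channel family, had 33.5, 60.3 and 30.0 normalized counts in 5xFAD 64, 65 and 79, and 37.1, 54.2 and 72.5 in WT 62, 63 and 66. It was highest in WT 66, whose counting interval overlapped those of 5xFAD 65 and WT 63.

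Slc4a5 encodes an electrogenic sodium bicarbonate cotransporter of the apical membrane. It had 31.2, 21.8 and 38.0 normalized counts in 5xFAD 64, 65 and 79, and 21.4, 32.7 and 39.8 in WT 62, 63 and 66. The highest was WT 66, by 1.05-fold over 5xFAD 79. Aqp1, the apical water channel, had 3.47, 11.4 and 5.00 normalized counts in 5xFAD 64, 65 and 79, and 4.64, 9.46 and 9.19 in WT 62, 63 and 66. It was read by at most 11 reads in any library, and WT 66 was the third highest.

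Otx2 encodes a homeodomain transcription factor that choroid plexus needs to form and to be maintained. It had 19.6, 10.4 and 3.00 normalized counts in 5xFAD 64, 65 and 79, and 0.929, 8.60 and 17.4 in WT 62, 63 and 66. The range was wide within both genotypes, and 5xFAD 64 and WT 66 stood at its top. WT 62 rested on 1 read. In GENCODE M21 its exons overlap those of Otx2os1 on the opposite strand and Gm49154 on the same strand, 322 bases in all, and the counting strand is not given in the sources used here.

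Levels of different genes were compared per kilobase of merged exons in GENCODE M21. In WT 66, Ttr had 933 normalized counts per kilobase, followed by Clic6 with 18.5, Prlr with 13.0, Kcne2 with 12.1 and Kl with 11.4, and the other members lay at 8.60 or less. As the median of the other 5 libraries, Prlr came first with 16.7 normalized counts per kilobase, then Sostdc1 with 12.3, Ttr with 10.9 and Clic6 with 9.49. Folr1 was lowest there, next to Kcne2 with 1.77 and Aqp1 with 1.90, and over those 5 libraries the ranges of the 3 overlapped, at 0.435 to 1.81 for Folr1, 0.654 to 2.83 for Kcne2 and 1.32 to 4.35 for Aqp1. Ttr made up 68.9% of the summed normalized counts of the 10 genes in WT 66 and 2.48% to 13.5% in the other libraries.

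**Figure D2:**
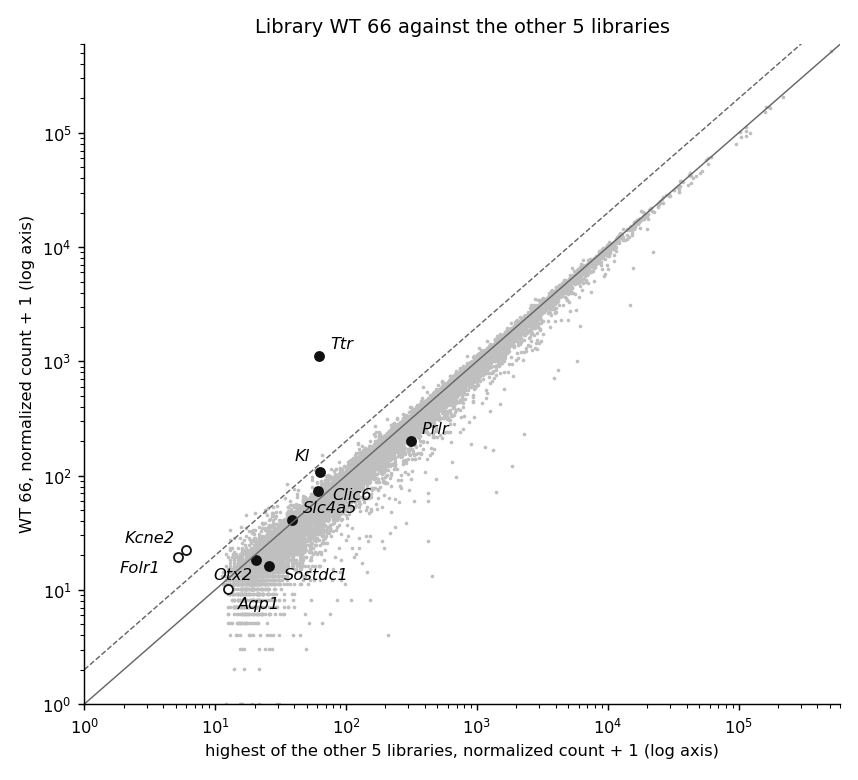
Normalized count + 1 in WT 66 against the highest of the other 5 libraries (log axes), with 1 grey point per tested gene (16411), filled circles for the 7 choroid plexus genes that were tested and open circles for the 3 under the filter. The solid line marks equality and the dashed line a ratio of 2, and Ttr, Kcne2 and Folr1 lie above the dashed line.

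None of the choroid plexus genes that could be tested passed the threshold between 5xFAD and WT. Of the 10 genes, 7 passed the filter on low values, and Folr1, Kcne2 and Aqp1 did not. Of those 7, 0 passed in the limma test, against 0.00609% of all tested genes, and 0 had an unadjusted p under 0.05, against 2.32%. edgeR's quasi-likelihood test and DESeq2 on the recovered reads also called 0 of the 7, DESeq2 without a p for Ttr. Groups overlapped for all 10 genes, while they did not in 7.42% of the tested genes. The value in 5xFAD was lower for 6 and higher for 1 of the 7, with a median log2 fold change of -0.07 (5xFAD over WT), against 49.8% lower and a median of 0.00053 over all tested genes.

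Ttr averaged 38.2 ± 24.5 normalized counts in 5xFAD and 377 ± 632 in WT (SD, n = 3 each), so the SD in WT exceeded its mean. On the log2(normalized count + 1) scale its log2 fold change was -0.76 (SE 2.16, 95% interval -6.54 to 5.02, limma adjusted p = 0.9995). Without WT 66 the sign turned, to a log2 fold change of 1.39 (SE 0.62, limma adjusted p = 0.9998). edgeR on recovered reads, which compares mean counts, gave -3.30 (unadjusted p = 0.0601, adjusted p = 0.9998). In the authors' deposited table, whose ratio of WT over 5xFAD was turned here, Ttr has a log2 fold change of -3.30 (SE 1.78) and no p-value. It is among 7 genes of that table with a fold change and no p.

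The other 6 tested genes had smaller differences and narrower intervals. The log2 fold change was -0.41 (SE 0.32) for Clic6 and -0.32 (SE 0.31) for Kl. Kl turned to 0.050 without WT 66. Clic6 lay at -0.71 without 5xFAD 65 (95% interval -1.38 to -0.05, unadjusted p = 0.0371, limma adjusted p = 0.9994) and at -0.19 without WT 66. Otx2 had 0.49 (SE 0.91), with an interval from -1.62 to 2.60. Prlr had -0.07 (SE 0.15), Slc4a5 -0.03 (SE 0.31) and Sostdc1 -0.06 (SE 0.33). The 95% interval lay within a 2-fold change in either direction for Prlr, Slc4a5 and Sostdc1, 3 of 7, against 87.9% of all tested genes, and it reached past 2-fold for Ttr, Kl, Clic6 and Otx2. For the 3 genes under the filter, the authors' deposited table, turned to 5xFAD over WT, gives log2 fold changes of -1.45 for Folr1 (SE 1.12), -1.55 for Kcne2 (SE 1.07) and -0.22 for Aqp1 (SE 0.82), each with an adjusted p of 0.9999.

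**Figure D3:**
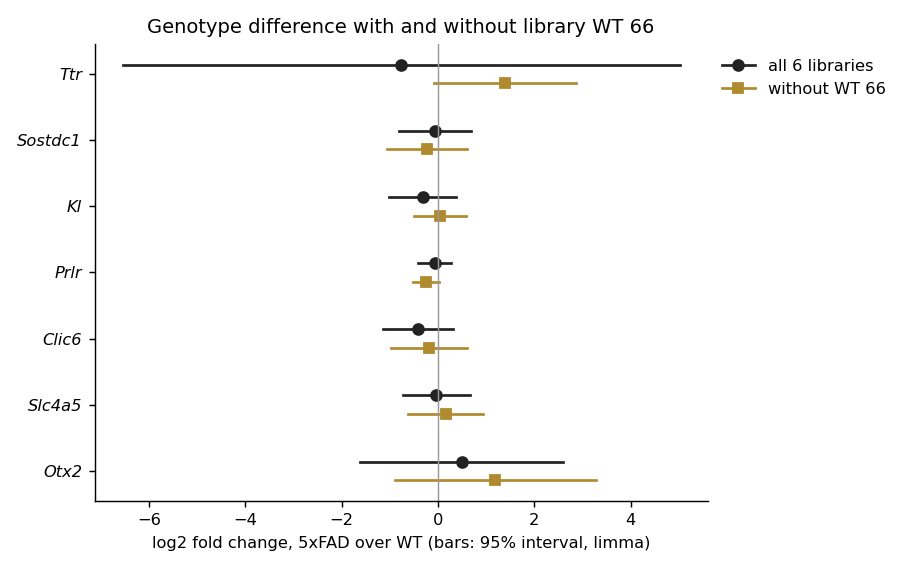
Log2 fold change of 5xFAD over WT with its limma 95% interval for the 7 tested choroid plexus genes, with all 6 libraries (circles) and without WT 66 (squares). Every interval includes 0, and Ttr, Kl and Slc4a5 change sign when WT 66 is left out.

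A further 44 genes enriched in choroid plexus epithelium were read in the same way, and 43 of them were found. Of 34 tested, 17 had higher and 17 had lower values in 5xFAD, with a median log2 fold change of -0.0039. The number past the threshold of limma was 0, and 0 had an unadjusted p under 0.05. The smallest p belonged to Slc13a4, a sulfate transporter, with a log2 fold change of 0.63 (SE 0.37), followed by Wfikkn2 with 0.38 (SE 0.24), Ace with -0.09 (SE 0.07) and Abca4 with -0.64 (SE 0.47). WT 66 was the highest library for 11 of the 43, tested or not, against 18.6% of all tested genes. It was at least 2-fold above the next library for 4 of the 43. Among the 34 tested this held for 2, against 0.0792% of all tested genes. F5, which encodes coagulation factor V, had 17.3, 17.7 and 19.0 normalized counts in 5xFAD 64, 65 and 79, and 13.9, 17.2 and 45.9 in WT 62, 63 and 66. Abca4, a retinoid transporter, had 18.5, 10.4 and 19.0 normalized counts in 5xFAD 64, 65 and 79, and 23.2, 12.9 and 49.0 in WT 62, 63 and 66. Both stood out in WT 66 in the direction of Ttr, by 2.42-fold and 2.11-fold over the next library. The sum of the list did not. Abundant genes such as Enpp2 and Trpm3 weigh most in that sum, so it could not show changes in genes as low as F5 and Abca4. The 43 genes summed to 29321 to 32739 normalized counts in 5xFAD and 30542 to 31492 in WT. The highest sum was that of 5xFAD 79, and WT 66 had 31492.

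Kcnj13, the inward rectifier of the apical membrane, was read by 1, 0 and 0 reads in 5xFAD 64, 65 and 79, and by 0, 1 and 9 reads in WT 62, 63 and 66. Wfdc2, a secreted protease inhibitor, had 0, 0 and 1 reads in 5xFAD 64, 65 and 79, and 0, 0 and 4 in WT 62, 63 and 66. In GENCODE M21, 623 of the 1270 exon bases of Kcnj13 overlap Gigyf2 on the opposite strand, so its reads are uncertain. Kcnj13 and Wfdc2 were named after their values were seen, and a count of 0 allows up to 3 reads in a library. Trpv4 of the same list, also named after its values were seen, went the other way. It had 9.19 normalized counts in WT 66 and 27.9 in the highest of the other libraries. WT 66 was the highest library for 11 of the 43 genes of the list. The most abundant genes of this longer list were at most 1.01-fold above the next library in WT 66. Enpp2, which makes lysophosphatidic acid and is also read from oligodendrocytes, had 7850, 5968 and 8745 normalized counts in 5xFAD 64, 65 and 79, and 7419, 6385 and 8802 in WT 62, 63 and 66. Trpm3, a cation channel also found in neurons, had 3847, 4169 and 4087 normalized counts in 5xFAD 64, 65 and 79, and 4001, 3907 and 4187 in WT 62, 63 and 66. Slc12a2, the sodium potassium chloride cotransporter, and Vat1l stood in WT 66 at 0.881 and 0.703 of the highest of the other libraries.

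Binding partners, relatives and signalling genes of the 10 did not pass either. Of 33 such genes 29 were tested, 18 with higher and 11 with lower values in 5xFAD, and limma called 0. Of the 29, 1 had an unadjusted limma p under 0.05, against 2.32% of all tested genes. That was Clic1, a relative of Clic6, with a log2 fold change of 0.39 (SE 0.15, limma adjusted p = 0.9995). Stat5a and Stat5b, which act below the prolactin receptor, had log2 fold changes of 0.30 (SE 0.24) and 0.11 (SE 0.10), and Otx1, the paralog of Otx2, one of 0.95 (SE 0.67). Kcnq1, the channel that Kcne2 joins in this epithelium, had 3.47, 3.12 and 9.00 normalized counts in 5xFAD 64, 65 and 79, and 4.64, 5.16 and 6.13 in WT 62, 63 and 66. It was named after its values were seen, and its exons overlap those of Kcnq1ot1 on the opposite strand. Aqp4, the astrocyte water channel, had 7164, 6098 and 7300 normalized counts in 5xFAD 64, 65 and 79, and 6962, 6157 and 7945 in WT 62, 63 and 66, so WT 66 was highest by 1.09-fold.

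Genes whose profile over the 6 libraries was most like the mean of the 7 tested members were ranked among 1419 named genes with a range of at least 1 on the log2 scale. The measure was Pearson's r of log2(normalized count + 1) over 6 libraries, given as a description. The 10 nearest were Tnnt1, Psme2b, Calr4, Acp7, Zan, C1qtnf3, Prkcd, F5, Casp1 and Fam161a, with r between 0.895 and 0.955. F5 is the member of the longer choroid plexus list among them. Prkcd, a protein kinase C, was the most abundant, with 334, 385 and 336 normalized counts in 5xFAD 64, 65 and 79, and 265, 311 and 598 in WT 62, 63 and 66. Ttr itself had an r of 0.904 with that mean, which includes Ttr, and one of 0.557 with the mean of the other tested members. With Ttr left out of the mean of the 7, the r of the same 10 genes lay between 0.653 and 0.885. Members were not all like each other, since Prlr had an r of -0.699 and Sostdc1 one of -0.271 with the mean of the other tested members.

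Neighbouring tissue was read through lists of marker genes, whose part in the values of the 10 genes was not tested. The 10 choroid plexus genes summed to 454, 465 and 424 normalized counts in 5xFAD 64, 65 and 79, and 412, 514 and 1606 in WT 62, 63 and 66. Without Ttr the sums were 393, 452 and 383 in 5xFAD 64, 65 and 79, and 402, 501 and 499 in WT 62, 63 and 66. Prlr was the largest part of these sums and lowest in WT 66, and without Ttr and Prlr the other 8 summed to 158, 197 and 143 in 5xFAD 64, 65 and 79, and 136, 187 and 300.2 in WT 62, 63 and 66. WT 66 was thus the highest library over all 10 genes, and again with Ttr and Prlr both left out. With Ttr alone left out it was level with WT 63. Prlr was left out after its values were seen. The 21 ependymal genes found summed to 1606 to 3787 in 5xFAD and 2391 to 3424 in WT, with 5xFAD 65 highest and WT 66 next, and the first 3 of the list, Foxj1, Ccdc153 and Tmem212, were above 0 in every library. The 18 genes of meningeal and choroid stromal fibroblasts summed to 2676 to 4058 in 5xFAD and 2477 to 2910 in WT, and WT 66 was the highest library for 1 of the 18. Fold changes for these fibroblast genes were above 0 for 15 of 17 tested and below for 2, with 0 past the threshold and 4 at an unadjusted p under 0.05. By direction, 1 of 21 tested ependymal genes was higher and 20 were lower in 5xFAD, with a median log2 fold change of -0.27. That direction hung on single libraries. With 1 library left out, the number of ependymal genes higher in 5xFAD ran from 0 without 5xFAD 65 to 16 without 5xFAD 79, and was 8 without WT 66. Over all tested genes 49.8% were lower and 2.32% had an unadjusted p under 0.05. The 4 fibroblast genes encode matrix proteins, with log2 fold changes of 1.07 for Lum, 0.72 for Col3a1, 0.41 for Col1a1 and 0.32 for Bgn.

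The 12 endothelial genes summed to 6302 to 6390 in 5xFAD and 5851 to 6866 in WT, and Plvap, which marks fenestrated capillaries, had 79.7, 102 and 62.0 normalized counts in 5xFAD 64, 65 and 79, and 87.3, 85.2 and 101 in WT 62, 63 and 66. Red blood cell genes summed to 1945 to 3370 in 5xFAD and 1963 to 3144 in WT, with WT 66 the highest WT library. Noradrenergic genes summed to 12814 to 17622 in 5xFAD and 9649 to 16346 in WT, and WT 66 was the lowest of all 6. Cerebellar genes summed to 9180 to 33285 in 5xFAD and 4490 to 25345 in WT, with WT 66 at 5981. Higher values in 5xFAD were found for 7 of 12 tested endothelial, 0 of 5 red blood cell, 9 of 11 noradrenergic and 11 of 11 cerebellar genes, with median log2 fold changes of 0.01, -0.15, 0.20 and 1.07. With 1 library left out, the numbers higher ran from 4 to 10 for endothelial, 0 to 2 for red blood cell and 2 to 10 for noradrenergic genes. The noradrenergic number fell to 2 without WT 66, and the cerebellar number stayed at 11. None of the tested genes of these 4 lists, 12, 5, 11 and 11 in number, or of the 21 ependymal genes passed in the limma test. At an unadjusted p under 0.05 there were 0 in each of these 5 lists.

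**Figure D4:**
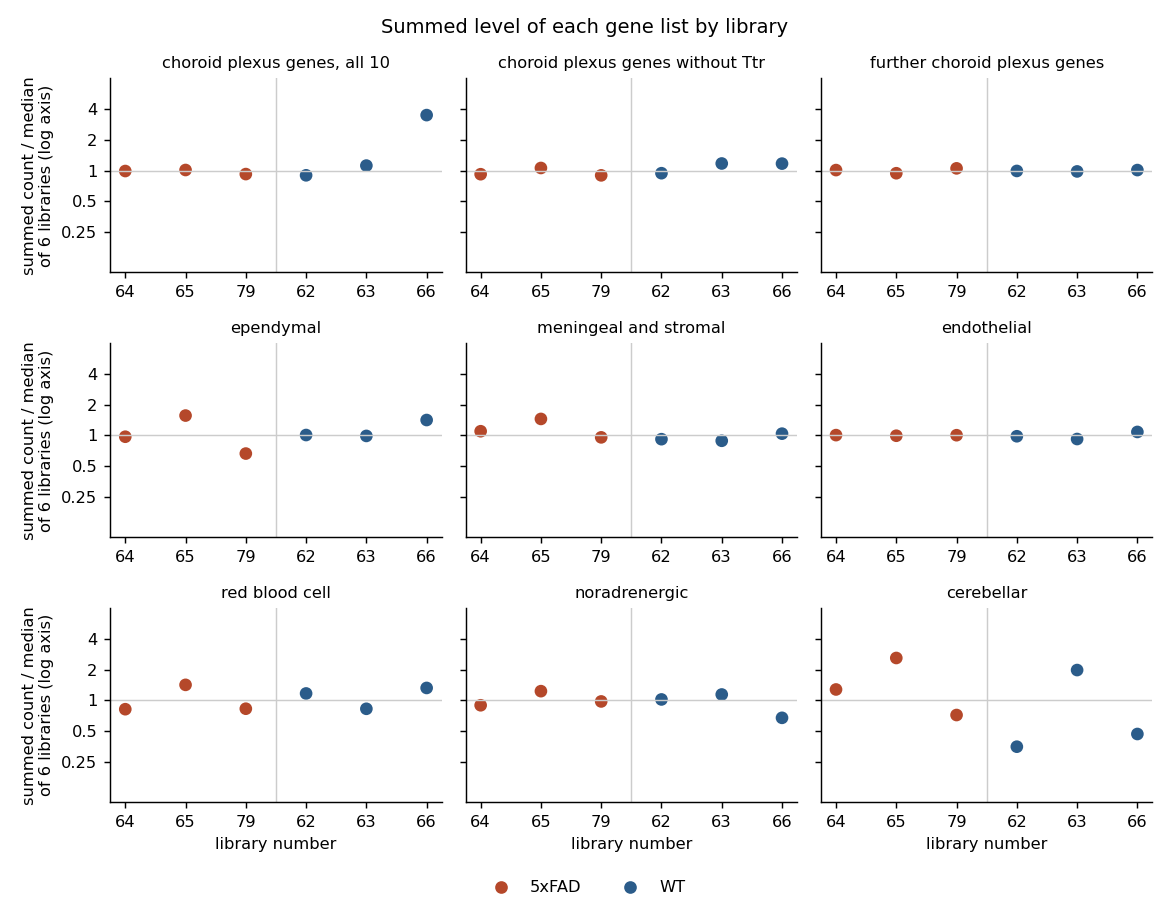
Summed normalized count of each gene list in the 3 5xFAD and 3 WT libraries, divided by the median of the 6 libraries (log axis), 1 point per library. The 10 choroid plexus genes reach 3.50 in WT 66, and without Ttr they reach 1.17 there and in WT 63. Prlr, lowest in WT 66, is the largest part of the sum without Ttr. The 8 genes other than Ttr and Prlr, a split chosen after the values were seen, are not plotted. They sum to 300.2 normalized counts in WT 66 against 197 or less elsewhere.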

How the data were processed

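Genotypes came from the titles. Per the labels' protocols, the nucleus was punched from vibratome slices, TRIzol was used for RNA, and TruSeq libraries were poly-A selected. Per the submitters' processing notes, STAR, RSEM, DESeq2 and mm39 were used. The authors' deposited library values are a signal of gene counts divided by a size factor (0.865 to 1.16). In each column 100% of values above 0 were whole multiples of a step (tolerance 0.001), which gave whole reads. The log2 fold change, standard error, test score and p-value of the authors come from the same deposited table. Symbols matched 52073 of 56923 identifiers (91.5%).

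Genes with at least 10 normalized counts in at least 3 libraries entered limma 3.58.1 (R 4.3.3) as log2(normalized count + 1), with variance trend and robust moderation, and adjusted by the Benjamini-Hochberg method over 16411 genes. edgeR 4.0.16 and DESeq2 1.42.0 were run on the recovered reads. This scale understates changes of low genes. No libraries of a group agreed within sampling noise (chi-square over its degrees of freedom 3.97 to 12.6). Members, lists and tests were chosen with earlier results of these data known. Besides the 10 members, genes named were up to 4 of smallest p and 4 of highest mean in each list, and the 10 nearest in profile.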

Additional observations from a re-analysis of the deposited data

How the results depend on the processing

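None of the 7 tested choroid plexus genes passed under any alternative run. Filter, pseudocount, scaling, limma moderation, edgeR and DESeq2 changed no direction among their fold changes (56 of 56 values), and DESeq2 gave no p for Ttr. The runs without filter and without moderation leave limma's fold changes as they are, so their part of the 56 values could not turn. Leaving out 1 library turned 10 of 42 values, and the number of members with a higher value then ran from 0 to 4, and with a lower value from 3 to 7, where the fit of all libraries gave 1 and 6. Over the libraries left out, log2 fold changes ran from -1.92 to 1.39 for Ttr, -0.51 to 0.050 for Kl, -0.71 to -0.19 for Clic6, -0.44 to 1.19 for Otx2, -0.25 to 0.081 for Prlr, -0.28 to 0.18 for Slc4a5 and -0.23 to 0.19 for Sostdc1. Over all genes, 0 were called higher and 1 lower without a filter, 0 higher without variance trend and robust moderation, and 3 higher and 1 lower with DESeq2, where limma gave 1 and 0. Without 1 library, 0 to 1 were called in each direction. Direction turned without 5xFAD 64 (Otx2), 5xFAD 65 (Slc4a5), 5xFAD 79 (Sostdc1), WT 62 (Otx2), WT 63 (Prlr, Slc4a5 and Sostdc1) and WT 66 (Ttr, Kl and Slc4a5). The cause was not tested. No paired analysis was possible because the groups share no library number. At 1 to 21 reads a library, Folr1, Kcne2 and Aqp1 fell under the filter in the fits of 16411 genes.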

Other observations

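Among 12 tested Hox cluster genes, counted after their values were seen, WT 66 was the highest library for 11, against 18.6% of all tested genes. The ratio to the next library was at least 2 for Hoxd4 and Hoxb4 and had a median of 1.55 over the 12. Of the 13 tested genes at least 2-fold above the next library there, Hoxd4 came second after Ttr, with 16.2, 3.12 and 12.0 normalized counts in 5xFAD 64, 65 and 79, and 12.1, 4.30 and 43.9 in WT 62, 63 and 66. Hoxb4, likewise a homeobox gene of caudal hindbrain and spinal cord, had 12.7, 0 and 23.0 normalized counts in 5xFAD 64, 65 and 79, and 13.9, 6.02 and 47.0 in WT 62, 63 and 66. Both Hox genes were lowest in 5xFAD 65 and next to lowest in WT 63, the 2 libraries with the highest cerebellar sums, 33285 and 25345. The other libraries did not follow one order. WT 62 had the lowest cerebellar sum, 4490, and lay below 5xFAD 64 (sum 16347) for Hoxd4 and below 5xFAD 79 (sum 9180) for Hoxb4. A link between the Hox values and these sums was not tested. Hoxd4 and Hoxb4 were named after their values were seen.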
